A study of Mus musculus with 2 samples.

Results

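The chemokine genes Ccl2, Ccl7, Ccl8, Ccl5, Ccl20 and Ccl28, which encode ligands of the CC class, and Cx3cl1, which encodes fractalkine, were examined in 3D cultures of mouse mammary basal cells grown with or without TNF-α. These 7 genes were taken by name from the 49492 genes of the count table, and all 7 were found. They were chosen with the difference between these libraries known, so their values are given as a description and no test is attached to them. Of the 7 genes, 5 had at least 10 counts summed over both libraries, the minimum used for a log2 ratio, while Ccl20 and Ccl5 had fewer and are given by their counts.

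Wild-type primary mammary epithelial cells, sorted as basal cells from adult female glands by FACS, were grown in 3D for 10 days. The control library came from cultures without added cytokine, and the TNF-α library from cultures that received 10 ng/mL recombinant mouse TNF-α. Per the study's methods the common medium held EGF and ITS. There was 1 library per condition, so no difference between these libraries has a replicate check. The number of animals behind each library is not given in the sources used here. The libraries held 44462275 counts (control) and 53487087 counts (TNF-α), and 1 count was worth 0.0224 and 0.0187 CPM (counts scaled to the library size, after TMM adjustment). Among genes with 1 to 19 counts, 26.2% of the control values and 24.95% of the TNF-α values were odd numbers, which is what counting each end of a pair separately gives. Intervals below are exact 95% intervals for counting error only and do not cover the spread between cultures, and where halving the counts changes what an interval holds, this is said. In RNA from whole cultures, fewer cells of a type and less RNA per cell cannot be told apart.

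Chemokines are small secreted proteins that bind G protein-coupled receptors and guide the movement of leukocytes. Ccl2 and Ccl7 act on Ccr2 of monocytes, Ccl5 on Ccr1 and Ccr3, Ccl20 on Ccr6, Ccl28 on Ccr10 and Ccr3, and mouse Ccl8 on Ccr8. Cx3cl1 differs from the others in being made as a membrane protein with a chemokine domain on a mucin stalk, which proteases can release, and its receptor is Cx3cr1. TNF-α is a classical inducer of several of these genes through NF-κB. In the gland, Ccl28 is known as an epithelial chemokine that attracts antibody-secreting cells. The study took Ccl2, Ccl7, Mmp3 and Tnfrsf1b as readouts of TNF-α signaling and reported them as higher by RT-qPCR with replicates. Its figure legend names TNF-α treated basal cells for these values, while its text names organoids co-cultured with macrophages. The comparison of the libraries asks how the transcripts of the whole group stood with and without the cytokine.

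The monocyte attractants Ccl2 and Ccl7 and the related Ccl8 were higher with TNF-α, Cx3cl1 was almost level between the libraries at the highest transcript level of the group, and Ccl28 was somewhat lower. More than 2-fold higher were 3 of the 5 genes with at least 10 counts, and 0 were more than 2-fold lower. Among all 20771 genes with at least 10 counts, 8.56% were more than 2-fold higher and 6.62% more than 2-fold lower. As the genes were picked on this contrast, nothing is read from that difference. The median log2 ratio of the 5 genes was 2.28, and that of all 20771 genes was 0.0038.

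Ccl2 (ENSMUSG00000035385) spans 82035571 to 82037453 of chromosome 11 (GRCm38). Its reads numbered 16 in the control and 1113 with TNF-α. On the CPM scale it was 58.1-fold higher with TNF-α (95% interval 35.6 to 102), and its log2 ratio with a prior count of 2 was 5.71. This placed Ccl2 8th from the top when the 20771 genes were ordered by log2 ratio.

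Ccl7 (ENSMUSG00000035373), also on chromosome 11 (82045712 to 82047525), had 6 counts in the control and 219 with TNF-α. Its level was 30.5-fold higher (95% interval 13.8 to 84.0), a log2 ratio of 4.56, and it stood 25th in the same order. The intervals of Ccl2 and Ccl7 overlapped. There were 2.67 Ccl2 counts for each count of Ccl7 in the control and 5.08 with TNF-α, and the log2 ratio of these ratios, 0.93, had an exact interval from -0.73 to 2.38. A difference between their responses was therefore not detectable at this depth.

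Ccl8 (ENSMUSG00000009185, chromosome 11, 82115185 to 82116799) was counted far less often, with 2 counts in the control and 20 with TNF-α. The ratio was 8.35 (95% interval 2.03 to 73.7) and the log2 ratio 2.28. With both ends of a pair counted once, this became 1 against 10 and the lower limit fell to 1.19, so the size of the Ccl8 difference is known only roughly. Among genes with 10 to 99 counts, the range that Ccl8 falls in, 18.7% passed 2-fold upward and 14.7% downward, against 4.01% and 2.87% of genes with at least 200 counts.

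Ccl20 (ENSMUSG00000026166, chromosome 1, 83116766 to 83119167) had 0 counts in the control and 8 with TNF-α. Taking 3 counts as the limit that a count of 0 allows, its ratio was 2.23. This leaves out the counting error of the 8, and the exact interval had a lower limit of 1.43. Ccl5 (ENSMUSG00000035042, chromosome 11, 83525778 to 83530518) had 0 counts in the control and 4 with TNF-α, a ratio of 1.11 by the same floor. Its exact interval had a lower limit of 0.551 and so held 1 without halving. With counts divided by 2, Ccl20 kept 4 counts and the interval of its ratio held 1, and Ccl5 fell below the floor. Both genes were near the limit of detection in these epithelial cultures, and their differences are not established at this depth.

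Ccl28 (ENSMUSG00000074715, chromosome 13, 119623819 to 119654354) was lower with TNF-α, with 45 counts in the control and 33 with TNF-α. The ratio was 0.612 (95% interval 0.379 to 0.981), within 2-fold, and with halved counts the interval ran from 0.298 to 1.21 and held 1. Cx3cl1 (ENSMUSG00000031778, chromosome 8, 94772009 to 94782427) had 5540 counts in the control and 6391 with TNF-α. Its ratio was 0.964 (95% interval 0.929 to 0.999), and with halved counts the interval from 0.916 to 1.01 held 1. Fractalkine transcripts were abundant, so this ratio had the narrowest interval of the 7 genes.

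**Figure D1:**
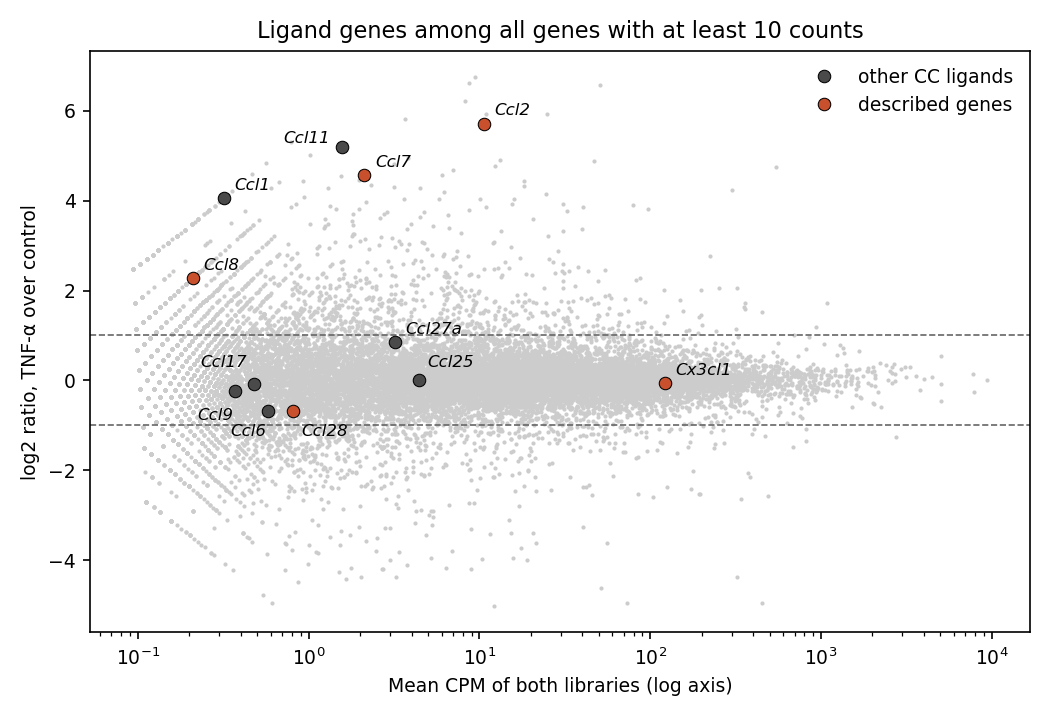
Each grey point is 1 of the 20771 genes with at least 10 counts, with the mean CPM of both libraries on a log axis and the log2 ratio (TNF-α over control) on the vertical axis; dashed lines mark 2-fold. Ccl2 and Ccl7 stand at 5.71 and 4.56, Ccl8 at 2.28 among rarely counted genes, and Cx3cl1 at -0.05 far to the right.

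Of all 21 pairs of the 7 genes, 8 had a change in their ratio of counts whose counting interval did not hold 0. The genes were chosen on this contrast, so these intervals describe the pairs and are no test. In these 8, Ccl2, Ccl7, Ccl8 or Ccl20 stood on the higher side against Ccl28 or Cx3cl1. With halved counts, an alternative chosen after seeing the data, 6 pairs were left, and the intervals of Ccl20 against Ccl28 and against Cx3cl1 then held 0. These ratios are free of library scaling. The log2 change of the Ccl2 to Cx3cl1 ratio was 5.91 (interval 5.21 to 6.73), that of Ccl7 to Cx3cl1 was 4.98 (interval 3.84 to 6.45) and that of Ccl8 to Cx3cl1 was 3.12 (interval 1.07 to 6.26). Between Ccl28 and Cx3cl1 the interval, -1.35 to 0.03, held 0. No pair within Ccl2, Ccl7, Ccl8, Ccl5 and Ccl20 could be separated by its response.

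For 4 of the 7 genes RefSeq start sites were at hand, and the promoters of Ccl8, which was higher, of Ccl20, which was seen with TNF-α alone, and of Cx3cl1, which was almost level, are shown for comparison. Each runs from 250 bases before to 50 bases after the RefSeq start on the plus strand of GRCm38.p6, at chr11:82114935-82115234, chr1:83116516-83116815 and chr8:94771930-94772229. Capitals mark matches to the NF-κB consensus or to TATAAA on either strand.
Ccl8: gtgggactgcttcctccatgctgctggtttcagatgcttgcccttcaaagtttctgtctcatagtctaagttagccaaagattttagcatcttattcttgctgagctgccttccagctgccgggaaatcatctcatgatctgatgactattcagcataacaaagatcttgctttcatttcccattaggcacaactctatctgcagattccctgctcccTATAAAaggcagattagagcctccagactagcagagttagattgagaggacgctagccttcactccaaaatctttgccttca
Ccl20: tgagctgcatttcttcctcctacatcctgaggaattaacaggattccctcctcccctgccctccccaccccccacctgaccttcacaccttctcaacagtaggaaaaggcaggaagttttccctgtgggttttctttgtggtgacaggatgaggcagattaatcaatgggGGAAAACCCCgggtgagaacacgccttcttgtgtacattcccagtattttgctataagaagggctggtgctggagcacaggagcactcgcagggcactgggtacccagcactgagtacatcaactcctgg
Cx3cl1: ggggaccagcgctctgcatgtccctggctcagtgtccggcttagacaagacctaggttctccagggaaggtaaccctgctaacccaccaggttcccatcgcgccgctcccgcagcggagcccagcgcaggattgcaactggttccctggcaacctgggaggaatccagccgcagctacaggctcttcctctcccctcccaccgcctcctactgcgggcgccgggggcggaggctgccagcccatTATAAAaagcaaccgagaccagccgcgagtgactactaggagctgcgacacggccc
Of these, Ccl20 held a match to the NF-κB consensus, on the opposite strand from -80 to -71 relative to the start, and such a match occurs in 8.46% of the 32851 promoters of this length. Ccl8 had TATAAA from -32 to -27 and Cx3cl1 from -6 to -1, and 13.6% of promoters hold TATAAA. The deposited Cx3cl1 model begins at 94772009, before this RefSeq start, so most of its window, with the TATAAA, lies inside that model. For Ccl8, Ccl20 and Ccl28 the deposited and RefSeq starts agree, so the Cx3cl1 window is not fully alike. The Ccl28 promoter, not shown, held neither, and it had a match to the AP-1 motif TGANTCA from 21 to 27 (7.81% of promoters). GAAANNGAAA, the core of interferon response elements, was in none of the 4. The Cx3cl1 window held 19 CpG sites, Ccl20 had 3 and Ccl8 had 2, against a median of 7 over all promoters. A match is a description of letters and shows no binding, and Ccl2, Ccl7 and Ccl5 were not among the promoters used.

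Levels are compared between genes per kilobase of exon, as RPKM with TMM-scaled library sizes. In the control library Cx3cl1 stood at 31.6 RPKM (interval 30.8 to 32.5) and no CC ligand gene reached 1 RPKM. Ccl17 and Ccl27a followed at 0.960 and 0.953 RPKM. Ccl2 at 0.315 RPKM, Ccl28 at 0.270 RPKM and Ccl7 at 0.168 RPKM came after Ccl25 and Ccl6, and each of these 3 had an interval overlapping that of the next gene in the order. Cx3cl1 thus held 88.9% of the summed RPKM of the 24 CC and CX3C ligand genes in the table, of which 12 had any count.

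With TNF-α, Cx3cl1 was still first at 30.5 RPKM, and Ccl2 was second at 18.3 RPKM (interval 17.3 to 19.4). Ccl7 followed at 5.12 RPKM (interval 4.47 to 5.85), and these 3 levels were apart beyond counting error. Ccl8 at 0.733 RPKM could not be told from its neighbours Ccl17 and Ccl25. Ccl28 at 0.166 RPKM, Ccl20 at 0.106 RPKM and Ccl5 at 0.0781 RPKM lay at the low end, each with an interval overlapping those of its neighbours. The summed RPKM of the 24 ligand genes was 35.6 in the control and 61.9 with TNF-α, and without Cx3cl1 it was 3.96 and 31.4. Ccl2 held 0.886% of the sum in the control and 29.6% with TNF-α, while the share of Cx3cl1 was 49.3% with TNF-α. Counts were seen for 16 of the 24 genes in that library.

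**Figure D2:**
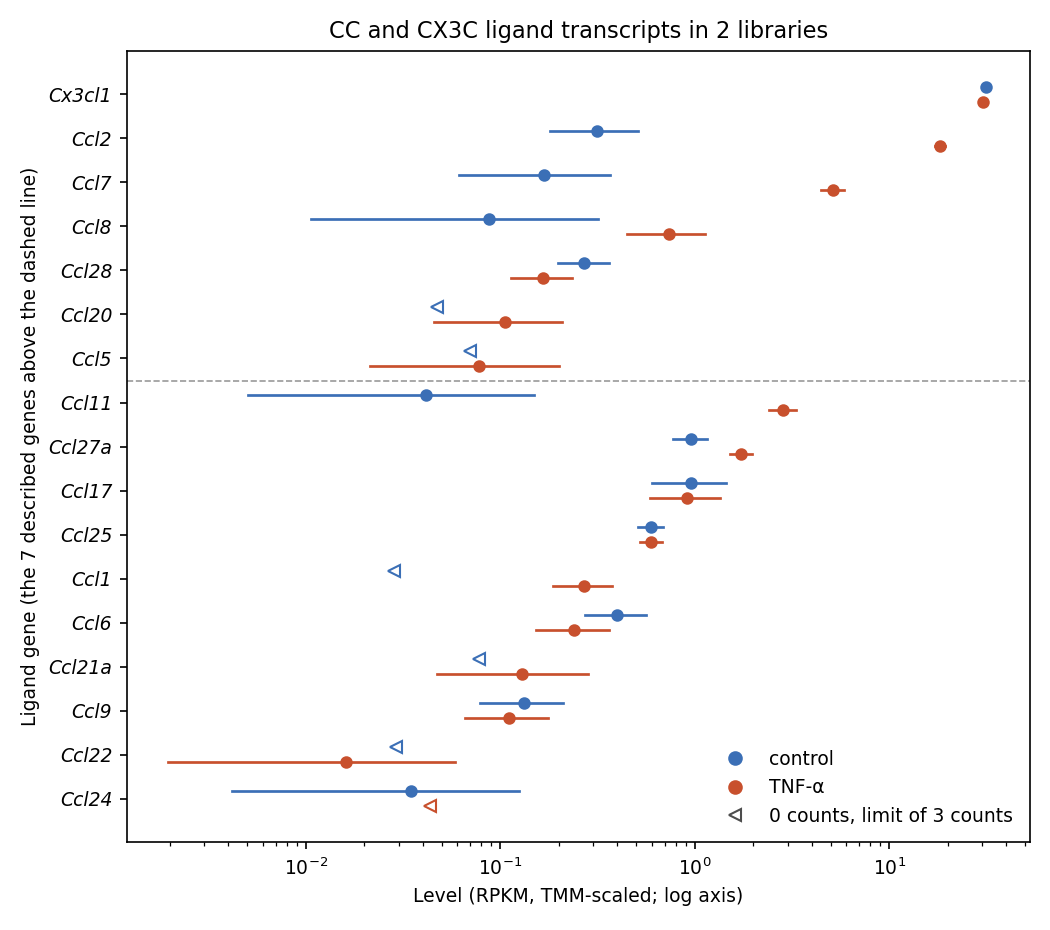
Level of each CC and CX3C ligand gene with any count in RPKM on a log axis, in the control (blue) and TNF-α (orange) libraries; bars are exact 95% Poisson intervals and open triangles mark 3 counts where a library had 0. Cx3cl1 is near 31 RPKM in both libraries, and the blue and orange bars of Ccl2, Ccl7 and Ccl8 do not overlap. The bars use the counts as deposited, without halving, and those of Ccl8 rest on 2 and 20 counts (1 and 10 when halved).

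Ccl2, Ccl7 and Ccl8 are neighbours on chromosome 11, in a block that also holds Ccl11 (eotaxin, an attractant of eosinophils), Ccl12 and Ccl1. The 6 genes of this block had 26 counts in the control and 1550 with TNF-α, 49.8-fold higher (95% interval 33.9 to 76.5). Beside Ccl2, Ccl7 and Ccl8, Ccl11 had 2 counts in the control and 164 with TNF-α, a ratio of 68.5 (95% interval 18.7 to 570). Ccl1 had 0 and 34 counts, in a deposited gene model that reaches from 82176657 to 82305690. Its ratio was 9.47 with the control set to 3 counts, and the exact interval had a lower limit of 7.29. Ccl12 had 0 counts in both libraries.

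A second block holds Ccl5 with Ccl9, Ccl6, Ccl3 and Ccl4, and the annotated start of Ccl5 lies 1495 kb from that of Ccl2. Its 5 genes had 50 counts in the control and 45 with TNF-α, a ratio of 0.752 (95% interval 0.491 to 1.15). Ccl9 had 18 counts in each library and Ccl6 had 32 and 23, while Ccl3 and Ccl4, known products of activated macrophages, had 0 in both. Among genes with at least 10 counts, 5 of 5 in the block with Ccl2 were more than 2-fold higher. In the block with Ccl5 these were 0 of 2, and over all genes the share was 8.56%. Ccl7, Ccl8, Ccl11 and Ccl1 reached 10 counts only through the TNF-α library, while Ccl9 and Ccl6 did so in the control alone. The filter thus favoured higher genes in the block with Ccl2, and nothing is read from these counts. Ccl2, Ccl7 and Ccl8 were chosen on this contrast and Ccl2 alone gave 1113 of the 1550 counts, so the difference between the blocks is a description. No 50-base stretch of the Ccl2, Ccl7, Ccl8, Ccl11 or Ccl12 transcripts of GENCODE M21 occurs in a transcript of another gene, so reads of that length were not shared among these relatives.

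**Figure D3:**
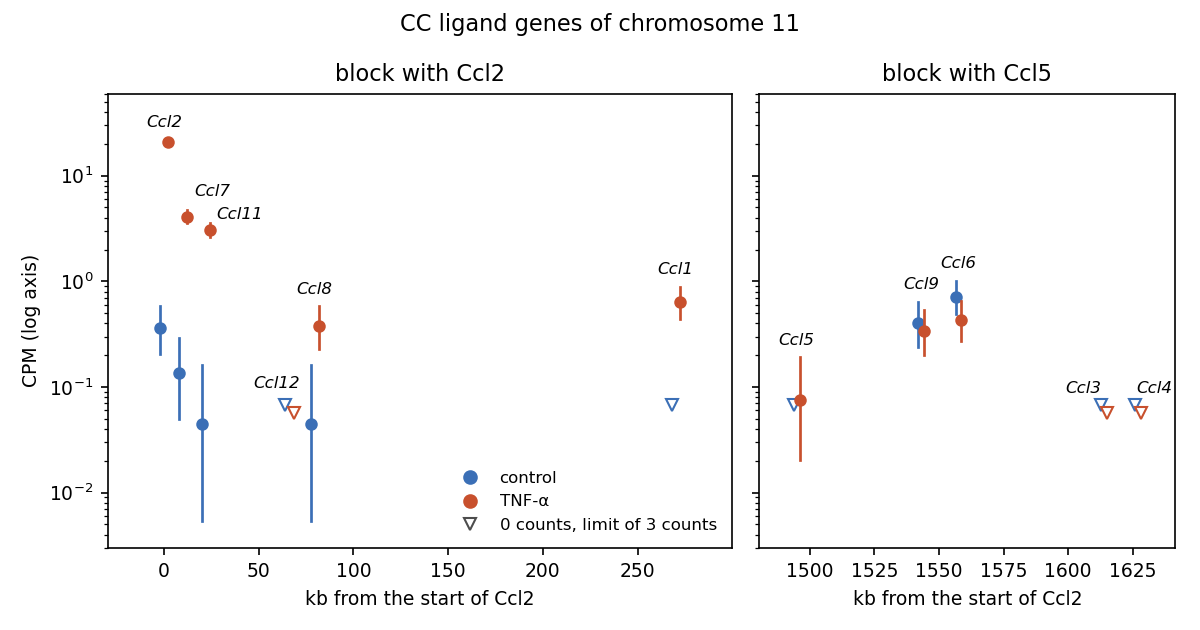
CPM on a log axis of the CC ligand genes in the 2 blocks of chromosome 11, against the distance in kb of each gene's annotated start from that of Ccl2; bars are exact 95% Poisson intervals and open triangles mark 3 counts where a library had 0. In the block with Ccl2 the orange points of 5 genes lie above the blue ones, and in the block with Ccl5 the intervals of Ccl9 and Ccl6 overlap. Points of a gene are set slightly apart sideways.

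Outside these blocks and beyond the 7 genes, Ccl27a, Ccl25, Ccl17, Ccl21a, Ccl22 and Ccl24 were counted. Ccl27a, a relative of Ccl28 that shares the receptor Ccr10, had 101 counts in the control and 220 with TNF-α, a ratio of 1.82 (95% interval 1.43 to 2.33). This value is uncertain, because 45.4% of the 50-base stretches of its transcripts occur in other genes and its exons overlap those of Il11ra1 on the opposite strand. Ccl25 (197 and 238 counts, overlapping Elavl1) and Ccl17 (22 and 25 counts) had ratios of 1.01 and 0.949. Ccl21a had 0 and 6 counts, also uncertain because 71.6% of its 50-base stretches occur in other genes. Ccl22 had 0 and 2 counts, and Ccl24 had 2 and 0. Of the 18 CC ligands beyond the 7 genes, 17 were in the table, 7 reached 10 counts, and Ccl11 and Ccl1 were the 2 past 2-fold. Over all genes with at least 10 counts, 8.56% were more than 2-fold higher and 6.62% lower. Ccl11 and Ccl1 reached 10 counts only through the TNF-α library, so nothing is read from this count.

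The receptors were scarcely counted. Of the 12 CC and CX3C receptor genes, 4 reached 10 counts and 0 of these differed by more than 2-fold. Over all genes with at least 10 counts, 8.56% were more than 2-fold higher and 6.62% lower. Ccr2, the receptor of Ccl2 and Ccl7, had 4 counts in the control and 6 with TNF-α. Cx3cr1 had 11 and 8 counts, Ccr10, the receptor of Ccl28, had 34 and 54, and Ccr3 had 0 and 2. Ccr1, Ccr6 and Ccr8 had 0 counts in both libraries. Of the 6 atypical receptors, which bind chemokines without classical signaling, 4 were measured and all lay within 2-fold, with Ackr4, a scavenger of Ccl19, Ccl21 and Ccl25 whose exons overlap those of Acad11 on the opposite strand, at 446 and 413 counts. The ligands were thus measured in cultures with few transcripts of their receptors.

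Chemokines are trimmed after secretion, and genes of such proteases were read beside the ligands. Of the 8 protease genes listed, 1 was more than 2-fold higher and 2 were more than 2-fold lower. Over all genes with at least 10 counts these shares were 8.56% and 6.62%. Mmp3, which can cleave several CC chemokines, had 46 counts in the control and 5397 with TNF-α, a log2 ratio of 6.56. Mmp2, which cleaves Ccl7 to an antagonist form, was at 4066 and 1364 counts, which is -1.83 on the log2 scale (95% interval -1.93 to -1.75). Dpp4, a peptidase that removes the first residues of Ccl5 and other chemokines, was at 169 and 66 counts, which is -1.58 on the log2 scale (95% interval -2.05 to -1.20), and its exons overlap those of Gm13561 on the opposite strand. For the sheddases that free Cx3cl1 from the membrane, Adam10 had 6851 and 8431 counts and Adam17 3484 and 6127, with log2 ratios of 0.04 and 0.55, both within 2-fold. These are transcript amounts and give no protease activity.

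Genes that act before the ligands were taken as 2 lists. Of 16 genes of TNF receptors and NF-κB, 6 were more than 2-fold higher and 0 lower, with a median log2 ratio of 0.45. Among all genes with at least 10 counts, 8.56% were more than 2-fold higher and 6.62% lower. The list was chosen with earlier results of these data known, so nothing is read from that difference. The receptor gene Tnfrsf1b had 18 counts in the control and 207 with TNF-α, which is 3.14 on the log2 scale (95% interval 2.57 to 4.05). Among the feedback inhibitors of NF-κB, Tnfaip3 had a log2 ratio of 2.45 and Nfkbia had 2156 and 10342 counts, and the lowest of the list was the other receptor gene, Tnfrsf1a, at -0.35. Of the 7 genes for factors that destabilise or stabilise cytokine mRNA, 0 differed by more than 2-fold. Among these Zfp36, whose product binds AU-rich mRNA and speeds its decay, was lowest with 1574 and 1146 counts (log2 ratio -0.72, with exons overlapping Gm44710 on the opposite strand), and Zc3h12a, an RNase for inflammatory mRNA, was highest at 0.88.

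**Figure D4:**
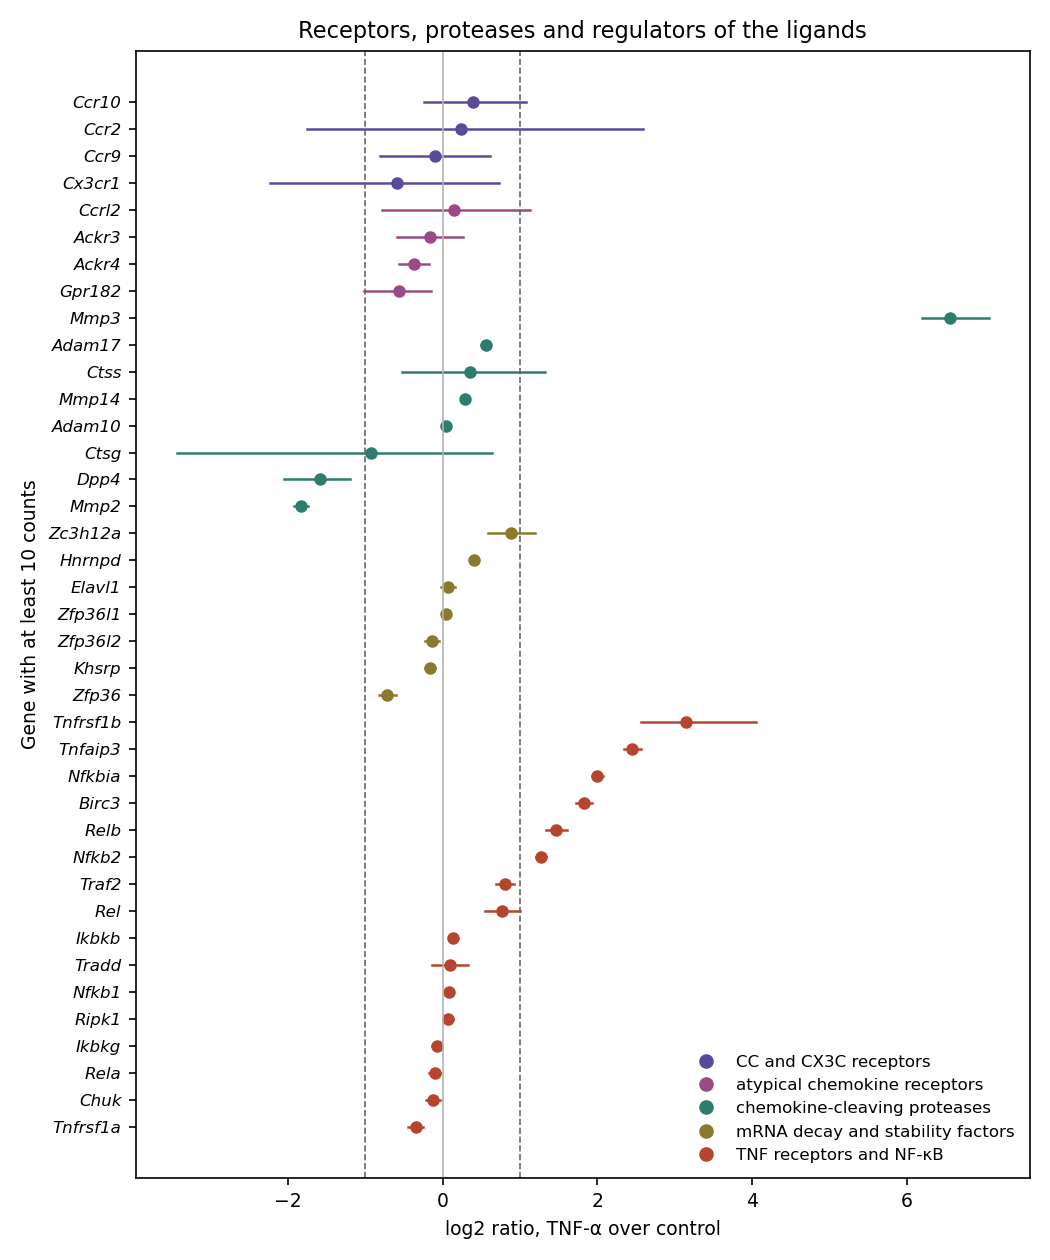
log2 ratio of TNF-α to control for the genes with at least 10 counts in 5 lists of receptors, proteases and regulators; bars are 95% counting intervals, shortened at the left edge where they run off the axis, and dashed lines mark 2-fold. Mmp3 at 6.56 and Tnfrsf1b at 3.14 lie farthest to the right, Mmp2 and Dpp4 lie left of -1, and the genes of the CC, CX3C and atypical chemokine receptors lie between the dashed lines.

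Several other cell types can make these chemokines, so their markers were read beside the ligands. Per the study's methods, the sort removed cells positive for CD45, CD31 or TER119, which mark leukocytes, endothelial cells and erythroid cells. Of 12 leukocyte and macrophage markers, 9 reached 10 counts, 0 differed by more than 2-fold, and the list summed to 9.15 CPM in the control and 7.25 CPM with TNF-α. Cd3e had 0 counts in both libraries, and the macrophage marker Adgre1 had 0 and 2. The 7 fibroblast markers summed to 517 and 495 CPM with 6 within 2-fold, and Dcn, at 184 and 582 counts, was the 1 more than 2-fold higher. The 5 endothelial markers summed to 7.07 and 6.75 CPM, and Emcn had 0 and 4 counts. The 8 basal markers, among them Krt14 at 229766 and 259922 counts, were plentiful in both libraries and summed to 11973 and 11040 CPM. Of these 8, 0 were more than 2-fold higher and 1, Oxtr, was more than 2-fold lower (log2 ratio -1.19). Luminal markers were also present and summed to 3680 and 2611 CPM, with 3 of 10 (Pgr, Esr1 and Prlr) more than 2-fold lower and 0 higher. All 10 had a log2 ratio below 0, with a median of -0.89. Over all genes with at least 10 counts, 6.62% were more than 2-fold lower and 8.56% higher. The part of any of these cell types in the ligand values was not tested.

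By distance between log2 levels in both libraries, with these 2 libraries as the only points, the gene nearest to Ccl7 was the collagenase gene Mmp13, at 22 counts in the control and 724 with TNF-α. The nearest to Ccl2 was Mir6978, with 1 and 63 counts, at a distance of 0.357, and no gene lay within 0.25 of Ccl2. Mir6978 is a microRNA by its name and so uncertain, and its 1 control count alone gave 0.394 RPKM. Nearest to Ccl8 was Amd-ps4 (4 and 41 counts, a pseudogene by its name and so uncertain), to Ccl28 Mkln1os, to Ccl20 Mt3, to Ccl5 Klhl10 and to Cx3cl1 Rbbp6. Within a distance of 0.25 lay 260 genes for Cx3cl1, 77 for Ccl5, 72 for Ccl20 and 58 for Ccl28, so the gene named for each of these is 1 of many, against 2 for Ccl8 and 1 for Ccl7.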

How the data were processed

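RNA-seq libraries were prepared per the labels with a SMARTER mRNA kit from 1 control and 1 TNF-α culture. The authors deposited raw gene-level read counts in the layout of featureCounts with exon coordinates and summed exon length; the submitters' processing notes name GRCm38 and mm10, and the aligner, counter and strand setting are not given in the sources used here. TMM factors from genes with at least 10 counts (edgeR version 4.0.16 in R 4.3.3) adjusted the library sizes, with a TNF-α to control ratio of 1.20. log2 ratios used a prior count of 2. Intervals are Clopper-Pearson (ratios), Poisson (levels) or exact conditional (pairs), and 3 counts were the floor. The quasi-likelihood test of edgeR needs replicates and was not run, and genes were named by a 2-fold rule. The calculation was tested on simulated data. The genes, lists and the rule for named genes (all 7 genes, other ligands with at least 10 counts, up to 3 highest and lowest past 2-fold in each list, receptors, and the nearest gene) were chosen with earlier results of these data known. Genes outside it, chosen after their values were seen, are Ccl3, Ccl4, Ccl12, Ccl21a, Ccl22, Ccl24, Ackr4, Adam10, Adam17, Tnfrsf1a, Zfp36, Zc3h12a and the named cell type markers. Alternatives were other scalings, including DESeq2 (version 1.42.0) size factors, other prior counts, filters and folds, halved counts and TPM. Calculations ran in Python 3.11.15 with scipy 1.17.1, numpy 2.4.6 and pandas 2.3.3, and plots in matplotlib 3.10.9.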

Additional observations from a re-analysis of the deposited data

How the results depend on the processing

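No paired analysis was possible because control and TNF-α were sequenced once each, so leave-one-out values do not exist either. Across scaling by total counts, upper quartile, DESeq2 size factors or reference genes, prior counts of 0.5 and 5, halved counts and 2 other filters, the log2 ratio of Ccl2 lay between 5.51 and 5.82, that of Ccl7 between 4.15 and 4.83, that of Ccl8 between 1.70 and 2.81 and that of Ccl28 between -0.76 and -0.63. Ccl8 had no value with at least 1 CPM. Scaling to 11 reference genes moved Cx3cl1 outside its counting interval, to -0.15, and 1 of these 11, Pgk1, was itself more than 2-fold higher (log2 ratio 1.43). Without a filter 5 of the 7 genes were more than 2-fold higher, since Ccl20 and Ccl5 then entered, and with a fold of 1.5 Ccl28 was the 1 gene lower. Over all genes, 1777 were higher and 1375 lower. These counts were 2679 and 2996 without a filter, 836 and 658 with at least 1 CPM, 3210 and 2846 at a fold of 1.5, 540 and 342 at a fold of 4, and 776 and 561 when the whole interval had to pass 2-fold, because each setting tests fewer or more genes or sets another threshold. TPM was 2.82 times RPKM in the control and 2.73 times with TNF-α for every gene, so the order of levels within a library is the same. The small control counts of Ccl2, Ccl7 and Ccl8 limit how closely their folds are known.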
